A study of Zea mays with 72 samples.

Results

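Control leaf 6 of maize (Zea mays, inbred line B73) seedlings was compared with control leaf 5 of seedlings of the same line and stage. The comparison took the 6 control libraries of leaf 6 and the 6 control libraries of leaf 5, which are 12 of the 72 RNA-seq libraries of a study of how leaves of different age sense airborne and dissolved defence cues. Of 32235 genes with values, 25558 passed a filter on low counts and were tested. Both leaves were immature, and leaf 4 of seedlings at that stage, whose 6 control libraries are given for context, was mature. The V4 seedlings had been cut, the leaves separated and cut again under water, left in water for at least 2 h and then held in clean moving air for at least 2 h. The controls received neither the leaf volatile (Z)-3-hexenyl acetate (HAC) nor the elicitor peptide ZmPep3, so every control value comes from a detached, untreated leaf standing in water. Sheath was removed only from leaf 4. The same pair of leaves was also sampled after HAC for 30 min, after HAC for 2 h and after ZmPep3 for 2 h at about 1 µM, with 6 libraries in each group. Whole leaves were frozen. The labels call the libraries biological replicates and do not say how many leaves went into each.

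A grass leaf grows from its base. Cells divide at the base, elongate above it, and mature toward the tip, where chloroplasts are complete, cell walls are lignified and sugar is exported. A younger leaf therefore usually holds more tissue that is still elongating and building plastids, and an older one more tissue that exports sugar, stores starch and recycles protein. Young maize tissue is also known for benzoxazinoids, a family of defence metabolites made from indole, and maize leaves under attack release indole, terpenes and short lipid-derived volatiles. Here a whole leaf is 1 mixed sample, so fewer cells of a type and less RNA per cell cannot be told apart.

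Leaf 6 and leaf 5 differed in a large share of the transcripts. At a Benjamini-Hochberg adjusted p under 0.05 by edgeR's quasi-likelihood test, 11498 of 25558 genes passed (45.0%), with 5685 higher (22.2%) and 5813 lower (22.7%) in leaf 6. The counts given below for gene lists read against these shares. The change was at least 2-fold for 2353 of the higher genes (9.21% of those tested) and for 2041 of the lower ones (7.99%). The 6 leaf 6 libraries lay wholly above the 6 leaf 5 libraries for 2775 genes (10.9%) and wholly below them for 2478 (9.7%). Levels are given as CPM (counts scaled to the total of each library, with that total adjusted by edgeR's TMM scaling factor). Differences are log2 fold changes of leaf 6 over leaf 5 ± their standard error (SE, n = 6 libraries a leaf). The SE is the absolute log2 change divided by the square root of the test's F value. Its spread estimate draws on all 72 libraries. Genes taken as the 12 largest log2 rises or 12 largest falls (such as RIP, wip1, HKT1 and ys1) had to show no overlap. For them it is no separate result. Each gene's NCBI Gene number stands in brackets at its main mention.

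**Figure D1:**
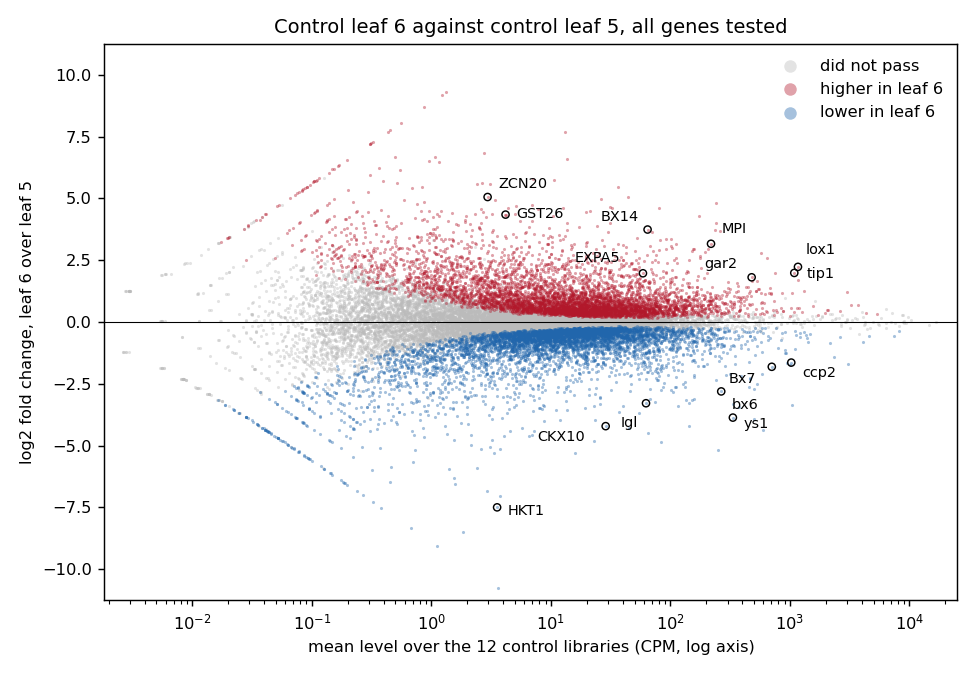
Log2 fold change of leaf 6 over leaf 5 (vertical axis) against mean CPM over the 12 control libraries (horizontal, log axis) for the genes tested that have counts in these libraries. Red genes (5685) were higher and blue genes (5813) lower in leaf 6 at an adjusted p under 0.05, grey genes did not pass, and circled genes are described in the text.

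The libraries held 26212027 to 30183886 counts in total. On the first principal component of log2 CPM, with 43.2% of the variance, all 6 leaf 6 libraries lay on the other side from all 6 leaf 5 libraries. On the next components, with 9.8% and 9.0%, leaf 6 control libraries 5 and 6 lay together at one end of the second and at opposite ends of the third, where the other 10 lay close together. Leaf 6 control libraries 1 and 3 lay at the other end of the second (61.88 and 44.45, against -43.63 and -74.08 for libraries 5 and 6). The median correlation of libraries 5 and 6 with their own group was 0.947 and 0.945, against 0.952 to 0.969 in the other 10 libraries. Without libraries 5 and 6, 10139 genes passed (5044 higher and 5095 lower in leaf 6), and values they move are given both ways. Libraries 1 and 3 were left out only one at a time.

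The same leaf difference was measured again in treated leaves, which share no library with the controls. Of the 11498 genes called between controls, 8434 (73.4%) were called in the same direction after 30 min of HAC, 8069 (70.2%) after 2 h of HAC and 8058 (70.1%) after ZmPep3, while 21, 54 and 64 were called in the opposite direction. Over all genes tested, 44.3% were called after 30 min of HAC (22.6% higher and 21.7% lower), 44.3% after 2 h of HAC (22.7% higher and 21.6% lower) and 43.5% after ZmPep3 (23.2% higher and 20.3% lower). In all 4 sets together, 3342 genes were higher and 2834 lower in leaf 6. Treatment changed the size of the leaf difference for 92 genes after 30 min of HAC (0.36% of those tested), for 445 after 2 h of HAC (1.74%) and for 529 after ZmPep3 (2.07%).

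Both leaves carried the defining transcripts of maize leaf blade. The mesophyll carboxylase gene pep1 held 8176 to 12001 CPM (median 10858) in leaf 6 and 8198 to 9659.6 CPM (median 9059) in leaf 5, a log2 difference of 0.22 ± 0.20 that did not pass (adjusted p = 0.373). ME1 (542233), which encodes the NADP-malic enzyme that releases CO2 in bundle sheath cells, held 3641 to 4773 CPM (median 3868) in leaf 6 and 1955 to 2699 CPM (median 2557) in leaf 5. Defining transcripts of the shoot meristem were close to absent: knotted1 (kn1), the homeobox gene that marks meristem and unexpanded stem, summed to 11 counts over the 6 leaf 6 libraries and 3 over the 6 leaf 5 libraries, and lg4a, another gene of that family, to 1 count in leaf 6 and 0 in leaf 5. Of the wider knotted-like list, knox6, knox7 and knox8 had enough counts to test, and the list summed to 48.5 to 63 CPM (median 52.1) in leaf 6 and 40.6 to 52.3 CPM (median 50) in leaf 5. knox7 was higher by log2 0.24, a call lost in 11 alternative settings, and knox6 (log2 0.11) and knox8 (log2 -1.37) did not pass. Ligule genes stood higher in leaf 6. lg1 (542528), a factor needed to form the boundary between blade and sheath, held 1.64 to 3.6 CPM (median 2.47) in leaf 6 and 0.0661 to 0.832 CPM (median 0.138) in leaf 5, with no overlap, and was higher by 3.35 ± 0.65 (adjusted p = 1.59e-05; 4.29 without leaf 5 control library 3). lg2, a bZIP factor of the same boundary, held 7.68 to 11.6 CPM (median 9.07) in leaf 6 and 3.55 to 6.08 CPM (median 5.2) in leaf 5, again without overlap (log2 0.90 ± 0.19, adjusted p = 9.03e-05).

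Genes that build the plastid's gene expression machinery were higher in leaf 6. Of 17 nuclear genes for plastid RNA splicing and processing, 14 were higher and 0 lower in leaf 6, where 22.2% and 22.7% of all genes were. Their median log2 change was 0.59, against 0.00 over all genes tested. ppr2 (100281431), a pentatricopeptide repeat protein needed for plastid translation, held 379.6 to 438 CPM (median 406) in leaf 6, against 198 to 249.8 CPM (median 231) in leaf 5. It was higher by 0.86 ± 0.13 (adjusted p = 1.29e-07), and the libraries of the leaves did not overlap. CAF1 (542118), which acts in group II intron splicing, held 31.6 to 44.5 CPM (median 39.1) in leaf 6 and 16.4 to 25.2 CPM (median 17.7) in leaf 5 (log2 1.03 ± 0.16). PPR10, which binds and protects plastid transcript ends, was higher by 0.87 ± 0.16. In leaf 4 the same genes were lower still, with ppr2 at 47.1 to 83.7 CPM (median 65.7) and PPR10 at 13.9 to 24.1 CPM (median 16.7).

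Single genes of plastid transcription and translation were also higher. Of 6 plastid sigma factor and Golden2-like genes 2 were higher and 1 was lower. The higher ones, sig2A (541716) and sig6 (542484) encode the sigma subunits that guide the plastid RNA polymerase to its promoters. sig2A held 132 to 167 CPM (median 154) in leaf 6 and 69.4 to 99.2 CPM (median 86.1) in leaf 5 (log2 0.81 ± 0.11, adjusted p = 4.21e-09). sig6 held 183 to 241 CPM (median 197) in leaf 6 and 75.5 to 134 CPM (median 104) in leaf 5 (log2 0.96 ± 0.20, adjusted p = 5.59e-05). Neither gene's libraries overlapped between the leaves. hcf60 (542469), the plastid ribosomal protein S17 whose loss gives high chlorophyll fluorescence seedlings, held 635 to 1069.7 CPM (median 844) in leaf 6, against 304 to 435 CPM (median 396) in leaf 5, and was higher by 1.15 ± 0.14 (adjusted p = 2.41e-10). G2-like1, a member of the Golden2-like group of chloroplast development factors, went the other way, with 22.7 to 27.8 CPM (median 23.4) in leaf 6 and 30.2 to 43.2 CPM (median 35.2) in leaf 5 (log2 -0.56 ± 0.18, adjusted p = 0.0084).

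Light harvesting genes differed little by comparison. Of 14 genes of antenna and photosystem proteins, 3 were higher and 0 lower in leaf 6, with a median log2 change of 0.06. Over all genes 22.2% were higher and 22.7% lower. Summed over the list, the libraries held 61207 to 77718 CPM (median 70159.6) in leaf 6 and 56777 to 73915 CPM (median 64848) in leaf 5. Leaf 4 held 21622 to 33629 CPM (median 27906). The members that passed were lhcb4 (log2 0.63 ± 0.15), an antenna protein of photosystem II, psaN (0.46 ± 0.14), a lumenal subunit of photosystem I, and CP22 (0.38 ± 0.10), the PsbS protein that triggers the release of excess light energy as heat. por, a protochlorophyllide reductase of chlorophyll synthesis, was higher by 0.42 ± 0.13 (adjusted p = 0.00601), although its libraries overlapped between the leaves.

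Electron transport and carbon fixation showed larger differences in single genes. FdI (101027099), the main leaf ferredoxin, held 3868 to 5316 CPM (median 4613) in leaf 6, against 2457 to 3138 CPM (median 2817) in leaf 5, and was higher by 0.70 ± 0.12 (adjusted p = 2.24e-06). Another ferredoxin gene, fdx2 (541619), held 749 to 1122 CPM (median 1012) in leaf 6 and 287 to 488 CPM (median 449.9) in leaf 5 (log2 1.19 ± 0.16, adjusted p = 3.65e-09). RA (541712), also listed as rca1, encodes Rubisco activase, which frees Rubisco of inhibitory sugars. RA held 1437 to 2102 CPM (median 1903) in leaf 6 and 540.1 to 951 CPM (median 767) in leaf 5, a difference of 1.27 ± 0.17 (adjusted p = 3.60e-09). rca3, another Rubisco activase gene, was higher by log2 1.79, with overlap (adjusted p = 0.0178). Of 5 Calvin cycle genes these were the 2 higher, and 0 were lower. The count of higher genes was 1 without leaf 6 control library 1 and also without library 3. Both genes named rbcS (log2 0.35 and 0.27) and G3PD (log2 0.10) did not pass. Of 7 electron transport genes 3 were higher and 2 lower, the lower ones being fdx3 (log2 -0.32) and fnr1 (log2 -0.74), a ferredoxin-NADP reductase. For FdI, fdx2 and RA every leaf 6 library lay above every leaf 5 library, and leaf 4 had the lowest median of the 3 leaves, with RA at 271 to 486 CPM (median 377).

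Genes of the C4 cycle, which concentrates CO2 around Rubisco, did not move as a group. Of 12 tested, 2 were higher and 4 lower in leaf 6. The list was matched by gene name only. The higher ones were ME1 and PDK1 (541677, log2 0.45, with overlap), and the name PDK1 does not by itself place a gene in this cycle. The ME1 levels given above made a difference of 0.71 ± 0.16 (adjusted p = 0.000232). C4ppdkZm1 (542759), the pyruvate phosphate dikinase that regenerates the CO2 acceptor, held 5864 to 7663 CPM (median 7479.8) in leaf 6 and 8039.8 to 10440.4 CPM (median 9000.1) in leaf 5 (log2 -0.34 ± 0.11, adjusted p = 0.00655). mdh6, the NADP-malate dehydrogenase of mesophyll chloroplasts, was lower in leaf 6, at a log2 change of -0.46 ± 0.08. PPCK4, listed with the kinases that activate phosphoenolpyruvate carboxylase, held 13.5 to 41.7 CPM (median 29.3) in leaf 6 and 44.5 to 90.9 CPM (median 75) in leaf 5 (log2 -1.33 ± 0.29), and PPCK3 was lower in leaf 6, at a log2 change of -1.83 ± 0.37. The leaves did not overlap in ME1, C4ppdkZm1, mdh6, PPCK4 or PPCK3. dxs1 (606484), the entry enzyme of the plastid isoprenoid pathway that feeds pigment synthesis, held 709 to 836 CPM (median 753) in leaf 6, against 257 to 364 CPM (median 302) in leaf 5, and was higher by 1.33 ± 0.14 (adjusted p = 7.40e-13). It was the 1 higher member of 4 genes of that pathway. The 2 lower ones, without overlap, were dxs2 (log2 -2.10) and Hds1 (log2 -0.47). Over all genes 22.2% were higher and 22.7% lower.

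**Figure D2:**
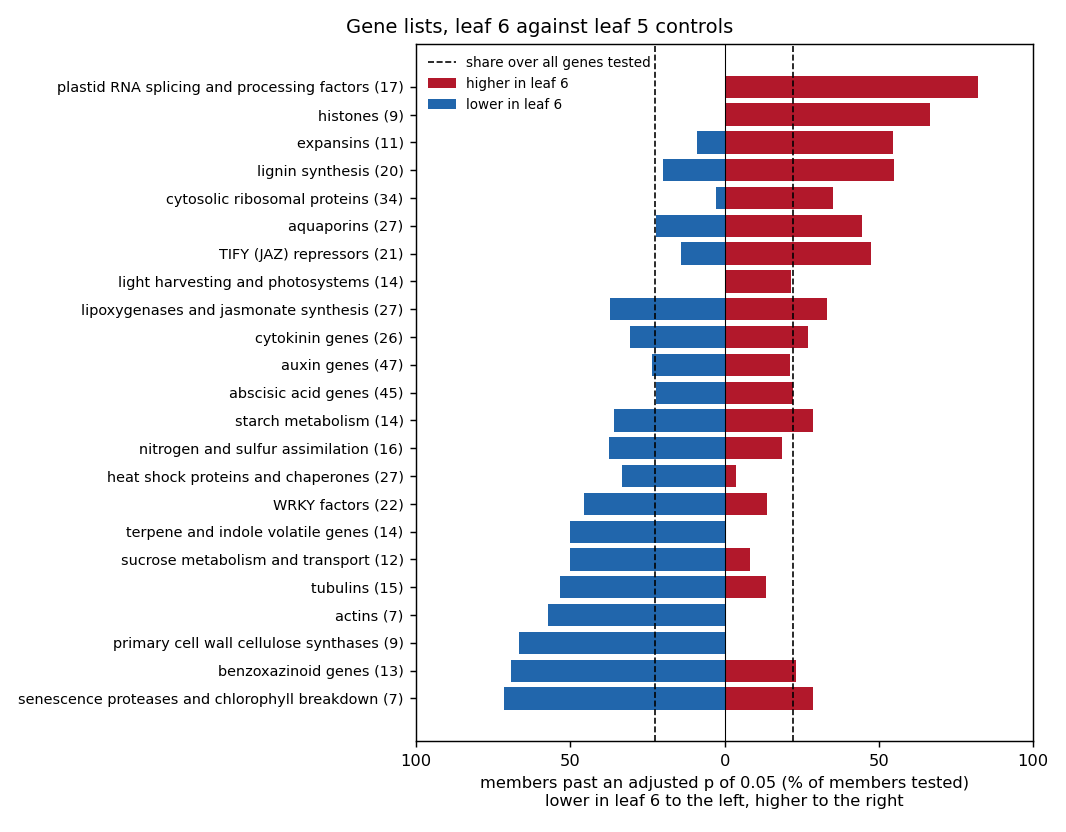
Share of the tested members that passed an adjusted p of 0.05 in a selection of the 63 gene lists (horizontal axis, percent of members tested, number tested in brackets). Members higher in leaf 6 are in red to the right and lower ones in blue to the left. The lists not shown include those of gibberellin, C4 cycle, defence protein and NAC genes. Dashed lines mark the shares over all genes tested (22.2% higher and 22.7% lower); plastid RNA factors reach 14 of 17 to the right, and senescence and benzoxazinoid genes 5 of 7 and 9 of 13 to the left.

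Wall-loosening transcripts were higher in leaf 6. Of 11 expansins, proteins that let cell walls slip during growth, 6 were higher and 1 lower, with a median log2 change of 0.95. EXPA5 (541907) held 55.9 to 127 CPM (median 91.5) in leaf 6, against 19 to 26.8 CPM (median 24.6) in leaf 5, and was higher by 1.97 ± 0.22 (adjusted p = 3.36e-11). expB8 and expB4 were higher by 1.01 ± 0.20 and 0.95 ± 0.25. The exception, expB5, held 1.26 to 3.49 CPM (median 2.31) in leaf 6 and 4.96 to 9.53 CPM (median 6.71) in leaf 5 (log2 -1.55 ± 0.35). None of these 4 genes overlapped between the leaves. Leaf 4 had little of them: EXPA5 stood at 1.11 to 3.07 CPM (median 1.88) there and expB4 at 0 to 0.166 CPM (median 0).

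Both xyloglucan endotransglucosylase genes, whose enzymes cut and rejoin the xyloglucan that ties cellulose fibrils, were higher in leaf 6. xet1 (542312) held 98.1 to 128 CPM (median 110.1) in leaf 6 and 27.6 to 35.7 CPM (median 33.9) in leaf 5 (log2 1.75 ± 0.14, adjusted p = 3.06e-17). xth1 (542059) held 551 to 656 CPM (median 634) in leaf 6, against 214 to 250.0 CPM (median 239) in leaf 5 (log2 1.41 ± 0.26, adjusted p = 8.79e-06), and 5.92 to 15.2 CPM (median 7.62) in leaf 4. The leaf 6 libraries of both genes lay well above those of leaf 5.

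Laccases were higher in leaf 6 while several monomer enzymes were lower. Of 20 genes of lignin synthesis and polymerization, 11 were higher and 4 lower in leaf 6, with a median log2 change of 0.81. All of the higher members but PAL1 and ccr2 were laccases, which couple lignin monomers in the wall. The lower ones were 4CL, ccoaomt1 and CCOAOMT2, enzymes of monomer synthesis, and lac4. Laccase-13 (100282094, the most abundant of the genes with that name) held 222 to 407 CPM (median 291) in leaf 6, against 25.1 to 70.3 CPM (median 49.4) in leaf 5, and was higher by 2.68 ± 0.28 (adjusted p = 3.28e-12). Laccase-17 (100281551) held 72 to 179 CPM (median 155) in leaf 6 and 20.8 to 56.6 CPM (median 33.4) in leaf 5 (log2 1.97 ± 0.35), and LAC1 was higher by 1.20 ± 0.17. PAL1 (542258), a phenylalanine ammonia-lyase at the entry of the pathway, held 764 to 1148 CPM (median 955) in leaf 6, against 451 to 687 CPM (median 487) in leaf 5 (log2 0.85 ± 0.14, adjusted p = 6.58e-07). In these 4 genes the leaves did not overlap. Of 10 genes for cellulose synthases of the secondary wall and for COBRA-type proteins, which act in cellulose assembly, 1 was higher and 5 were lower, and these were all COBRA-type. Secondary wall cellulose synthase cesa10 held 139.6 to 211 CPM (median 192) in leaf 6 and 131 to 197 CPM (median 148) in leaf 5, and its log2 difference of 0.24 ± 0.32 did not pass (adjusted p = 0.58).

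Primary wall cellulose synthases, tubulins and actins were mostly lower in leaf 6. Of 9 primary wall cellulose synthase genes, 6 were lower and 0 higher. CesA-1 (541802) held 34.9 to 49.8 CPM (median 45.4) in leaf 6, against 57.3 to 88.1 CPM (median 70.7) in leaf 5, and was lower in leaf 6, at a log2 change of -0.69 ± 0.12 (adjusted p = 1.61e-06). CesA-3 differed by -0.97 ± 0.14 and CesA-2 by -0.46 ± 0.11, and none of these 3 genes overlapped. Of 7 actins, 4 were lower and 0 higher, led by ACT-1 (100282267) with 12.2 to 22.6 CPM (median 15.5) in leaf 6 and 35.3 to 52.1 CPM (median 47.7) in leaf 5 (log2 -1.47 ± 0.15, adjusted p = 4.02e-13).

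Of 15 tubulins, the subunits of the microtubules that guide cellulose deposition, 8 were lower and 2 higher in leaf 6. The alpha-tubulins TUA1 and TUA2 were the higher members. TUA1 held 311 to 495 CPM (median 453) in leaf 6 and 235 to 297 CPM (median 256) in leaf 5 (log2 0.71 ± 0.11), and TUA2 was higher by 0.89 ± 0.10. The beta-tubulins tub3 and tub4 were lower in leaf 6, at log2 changes of -0.95 ± 0.14 and -0.89 ± 0.16. Tubulin genes resemble one another closely, and reads shared between copies make single members less certain than the sum, which was 1690.0 to 2566 CPM (median 2161) in leaf 6 and 1858 to 2553 CPM (median 2126) in leaf 5.

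Histone transcripts were higher in leaf 6, whereas replication and cyclin genes showed few differences. Of 9 histone genes tested, 6 were higher and 0 lower, with a median log2 change of 0.69. H1 (542385) held 186 to 307 CPM (median 259.7) in leaf 6, against 107 to 160.3 CPM (median 126) in leaf 5 (log2 0.98 ± 0.13, adjusted p = 1.35e-09). hon110, another linker histone gene, held 491 to 624 CPM (median 569) in leaf 6 and 238 to 349.7 CPM (median 297) in leaf 5 (log2 0.94 ± 0.13). Neither gene overlapped between the leaves. PCNA, the sliding clamp of replicating DNA, was lower at a very low level, with 0.396 to 2.35 CPM (median 0.805) in leaf 6 and 2.1 to 2.97 CPM (median 2.7) in leaf 5 (log2 -1.34 ± 0.25, adjusted p = 8.64e-06). Of 8 replication genes 1 was lower, and of 7 cyclin and mitotic kinase genes 2 were; 0 of either list were higher.

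Cytosolic ribosomal proteins leaned toward leaf 6. Of 34 genes, 12 were higher and 1 lower, with a median log2 change of 0.18. rpl19 held 448 to 689 CPM (median 564) in leaf 6, against 263 to 399 CPM (median 339) in leaf 5, with no overlap (log2 0.73 ± 0.12, adjusted p = 5.01e-07). Organ size genes leaned toward leaf 5. Of 14 cell number regulator and ARGOS genes, 7 were lower and 1 higher in leaf 6. CNR6 was lower in leaf 6, at a log2 change of -1.01 ± 0.14 and ARGOS6 at -1.37 ± 0.22, without overlap in either gene.

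Water channels of the plasma membrane and tonoplast were among the most abundant genes higher in leaf 6. Of 27 aquaporins, 12 were higher and 6 lower, and the summed level was 4313 to 5605 CPM (median 5091) in leaf 6 and 2351 to 3095 CPM (median 2632) in leaf 5. tip1 (541675), a tonoplast aquaporin of expanding tissue, held 1314 to 2196 CPM (median 1667) in leaf 6, against 373 to 569.9 CPM (median 424) in leaf 5, and was higher by 1.99 ± 0.14 (adjusted p = 1.25e-19). The plasma membrane genes pip2b (542644), PIP1-1 (542434) and PIP2-1 (541888) were higher by 2.07 ± 0.15, 1.37 ± 0.14 and 1.40 ± 0.14. Other tonoplast and silicon channels were lower. TIP4-1 (541897) held 129 to 243 CPM (median 169) in leaf 6 and 361 to 465 CPM (median 427) in leaf 5 (log2 -1.26 ± 0.12), and the silicon channel gene Lsi1 held 65.4 to 133 CPM (median 81.5) in leaf 6 and 168 to 199 CPM (median 176) in leaf 5 (log2 -1.04 ± 0.15). In these 6 genes no library of either leaf fell within the range of the other. tip1 was not ordered by leaf age: leaf 4 held 524 to 811 CPM (median 695), with a median above that of leaf 5.

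Epidermal genes differed in kind. ocl1, a homeodomain factor of the outer cell layer, was higher in leaf 6 by 0.74 ± 0.12. gl8 (542359), a reductase of the fatty acid elongase that makes wax precursors, held 64.5 to 138 CPM (median 112) in leaf 6 and 28.9 to 55.4 CPM (median 44.8) in leaf 5 (log2 1.21 ± 0.16, adjusted p = 4.32e-09). gl4a (100191738), a ketoacyl-CoA synthase of the same elongase, held 286 to 612 CPM (median 542) in leaf 6 and 125 to 299 CPM (median 245) in leaf 5 (log2 1.03 ± 0.22, adjusted p = 6.48e-05), with overlap, and 3.19 to 7.81 CPM (median 6.31) in leaf 4. CER1 (100273712), named for the gene of alkane formation in Arabidopsis, went the other way with 6.85 to 30.3 CPM (median 23.1) in leaf 6 and 60.2 to 113 CPM (median 81.8) in leaf 5 (log2 -2.11 ± 0.35, adjusted p = 9.61e-07). Of 13 epidermis and cuticle genes, 5 were higher and 3 lower, against 22.2% and 22.7% of all genes.

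**Figure D3:**
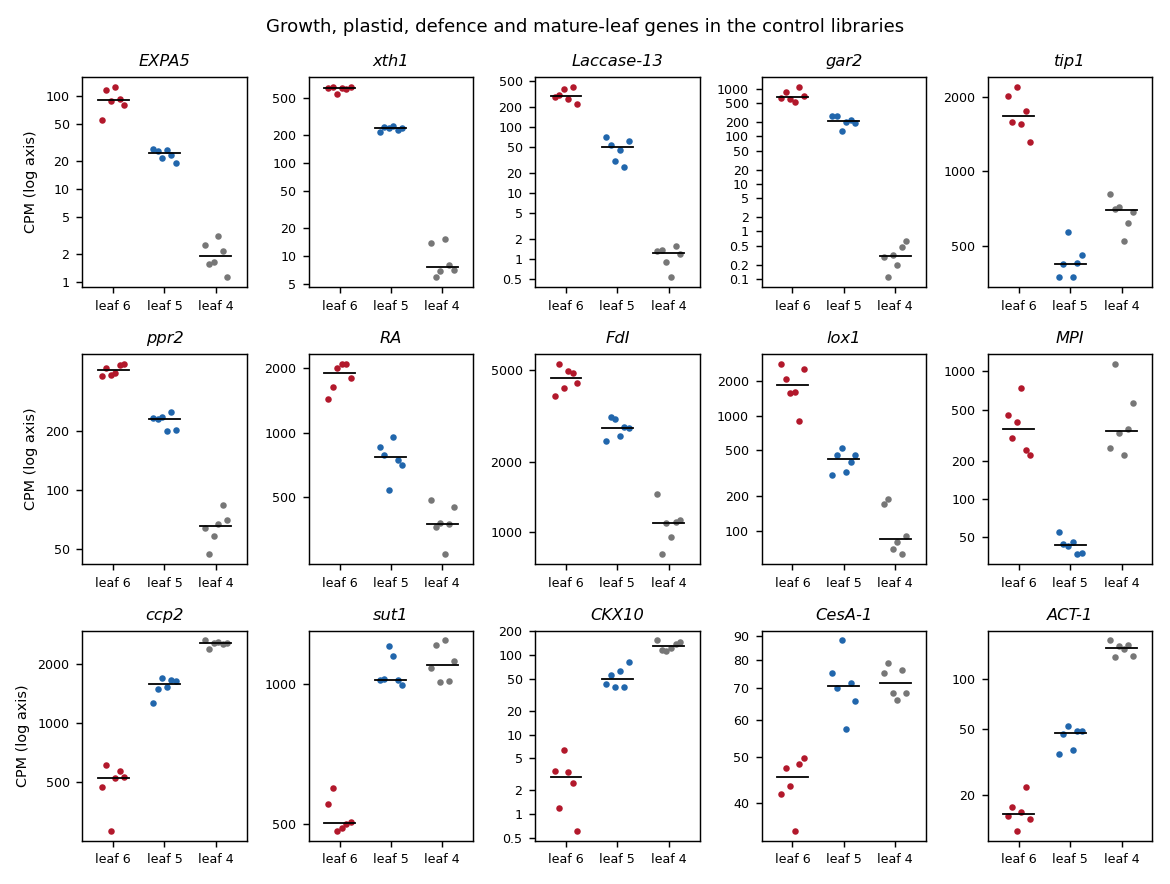
CPM (log axis) of 15 genes in each control library of leaf 6 (red), leaf 5 (blue) and leaf 4 (grey); each point is a library and the bar is the median of 6. Leaf 6 and leaf 5 do not overlap in any of the 15 genes; EXPA5, xth1, Laccase-13 and gar2 are lowest in leaf 4, MPI reaches similar levels in leaf 4 and in leaf 6, and ccp2, CKX10 and ACT-1 are highest in leaf 4.

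Cytokinin genes changed in both directions. Cytokinins keep cells dividing and leaves green. They are degraded by cytokinin oxidases, and type-A response regulators are switched on by the signal and then dampen it. CKX10 (100280446), a cytokinin oxidase, held 0.604 to 6.48 CPM (median 2.92) in leaf 6, against 40.2 to 82.8 CPM (median 49.7) in leaf 5, and was lower in leaf 6, at a log2 change of -4.21 ± 0.31 (adjusted p = 1.34e-17). RR7 (541633) held 11 to 22.7 CPM (median 20.6) in leaf 6 and 2.02 to 4.36 CPM (median 2.77) in leaf 5 (log2 2.61 ± 0.33), and crr1 (541613) held 2.71 to 9.63 CPM (median 7.81) in leaf 6 and 0.792 to 1.83 CPM (median 1.28) in leaf 5 (log2 2.39 ± 0.33). RR9, another response regulator gene, was lower in leaf 6, at a log2 change of -1.36 ± 0.11. The leaves did not overlap in any of these 4 genes. Over the list of 26, 7 were higher and 8 lower, close to the share over all genes for both directions. After ZmPep3 the leaf difference of crr1 was 0.55 ± 0.32, a change from controls of -1.84 ± 0.45 (adjusted p = 0.0147), and that of CKX10 was -2.68 ± 0.29.

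Gibberellins drive leaf elongation, and genes of their synthesis and response were split. an1 (542253), the copalyl diphosphate synthase whose loss gives dwarf anther ear1 plants, held 5.72 to 11.7 CPM (median 8.18) in leaf 6, against 0.672 to 2 CPM (median 1.69) in leaf 5, and was higher by 2.45 ± 0.36 (adjusted p = 6.64e-08). gar2 (541620), named as gibberellin responsive, held 534 to 1103 CPM (median 678) in leaf 6 and 127 to 268 CPM (median 209) in leaf 5 (log2 1.81 ± 0.27, adjusted p = 8.80e-08). A gene of the same naming, gar1, had the opposite difference (log2 -2.36). In leaf 4 gar2 was nearly absent, at 0.108 to 0.638 CPM (median 0.31). The DELLA repressors d9 and D8, which gibberellin removes, were lower in leaf 6, at log2 changes of -0.66 ± 0.12 and -0.58 ± 0.12, with overlap in both. Of 8 gibberellin genes all passed, 4 higher and 4 lower.

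Auxin response factors and auxin transporters changed in both directions. ARF17 (100272511) held 2.56 to 6.01 CPM (median 4.24) in leaf 6, against 17.5 to 29.3 CPM (median 21) in leaf 5, and was lower in leaf 6, at a log2 change of -2.33 ± 0.17 (adjusted p = 2.31e-18). arf1 (732812) held 55.1 to 76.3 CPM (median 61.8) in leaf 6 and 121 to 156 CPM (median 140.3) in leaf 5 (log2 -1.14 ± 0.09, adjusted p = 1.04e-17). Others of the family, a separate gene written ARF1 (log2 0.38), ARF11 (log2 0.41) and ARF16 (log2 0.79), were higher, with overlap. PIN1a, an auxin efflux carrier, was lower in leaf 6, at a log2 change of -1.74 ± 0.22, and PIN10a, of the same family, was higher (log2 1.46). GH3, of the family that conjugates auxin or jasmonate to amino acids, was higher by 3.17 ± 0.44 at a low level, 2.44 to 5.4 CPM (median 4.84) in leaf 6 and 0.0663 to 0.973 CPM (median 0.406) in leaf 5. No overlap was seen in ARF17, arf1, PIN1a, PIN10a or GH3. Of 47 auxin genes, 10 were higher and 11 lower, shares near those over all genes.

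The largest rises among abscisic acid genes rested in part on single libraries. vp14 (732819), the dioxygenase that commits carotenoids to abscisic acid, held 3.12 to 52.7 CPM (median 12.3) in leaf 6 and 1.55 to 5.25 CPM (median 2.32) in leaf 5. Its log2 difference of 2.62 ± 0.50 (adjusted p = 1.75e-05) was 1.78 without leaf 6 control library 4, where vp14 was highest, and 3.07 without leaf 6 control libraries 5 and 6. PP2C14, one of the phosphatases that hold the signal back, held 3.62 to 60.7 CPM (median 13.4) in leaf 6 and 0.534 to 5.85 CPM (median 1.24) in leaf 5. It was higher by 3.52 ± 0.61 (adjusted p = 2.76e-06), by 2.86 without leaf 6 control library 4, by 4.35 without leaf 5 control library 3 and by 4.02 without leaf 6 control libraries 5 and 6. The kinase genes SnRK2.7 and SnRK2.1 were lower in leaf 6 at log2 changes of -1.35 ± 0.15 and -1.01 ± 0.15 with no overlap. Of 45 genes, 10 were higher and 10 lower, again near the share over all genes, or 6 higher without leaf 6 control library 1. After ZmPep3 the leaf difference of vp14 was -0.93 ± 0.47, and it differed from that in controls by -3.55 ± 0.68 (adjusted p = 0.000922).

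Lipoxygenases oxidize fatty acids at carbon 9 or carbon 13; 13-products feed jasmonate and the green leaf volatiles, of which HAC is a member. Of the lipoxygenase genes, lox1, lox2, lox3, lox5, lox11 and ts1 were higher in leaf 6, and lox4, lox6 and lox12 were lower. lox1 (541856) held 891 to 2832 CPM (median 1854) in leaf 6, against 305 to 522 CPM (median 423) in leaf 5, and was higher by 2.23 ± 0.26 (adjusted p = 1.10e-10). lox2 (100037802), a near copy with which lox1 may share reads, held 1158 to 2467 CPM (median 1770.2) in leaf 6 and 431 to 708 CPM (median 558) in leaf 5 (log2 1.71 ± 0.27). lox5 (100037804), a 9-lipoxygenase gene, held 251 to 469 CPM (median 285) in leaf 6 and 60 to 135 CPM (median 71.7) in leaf 5 (log2 1.97 ± 0.33, adjusted p = 9.73e-07). lox11 was higher by 1.30 ± 0.19 (adjusted p = 4.77e-08). Every leaf 6 library lay above every leaf 5 library in these 4 genes. aos2, an allene oxide synthase, was higher by 2.02 ± 0.25 as well. In leaf 4 lox1 and lox2 were lower than in both young leaves, at 62.2 to 188 CPM (median 84.5) and 45.5 to 221 CPM (median 64.5).

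lox10 and HPL, which lead to green leaf volatiles, were not higher in leaf 6. lox10 (100037809), the 13-lipoxygenase that supplies the volatile branch, held 2755 to 9756 CPM (median 5407) in leaf 6 and 4607 to 10234 CPM (median 6762) in leaf 5, with wide overlap. Its log2 difference of -0.26 ± 0.17 did not pass (adjusted p = 0.228), although it passed at -0.51 (adjusted p = 0.0125) without leaf 6 control library 1. HPL (542163), the hydroperoxide lyase that cleaves the lipid into the volatile aldehyde, was lower in leaf 6, at a log2 change of -0.57 ± 0.16 (adjusted p = 0.00278), and did not pass without leaf 6 control libraries 5 and 6 (-0.43, adjusted p = 0.0527). lox6 behaved likewise, at -0.81 ± 0.23 with all libraries and -0.54 without those libraries (adjusted p = 0.0629). Per transcript length lox10 was the most abundant of the lipoxygenases described, at a mean of 1917 FPKM in leaf 6 and 2329 FPKM in leaf 5, where lox1 had 689 FPKM in leaf 6 and 149 FPKM in leaf 5. Over the whole list of 27 lipoxygenase and jasmonate synthesis genes, 9 were higher and 10 lower in leaf 6, or 5 lower without leaf 6 control libraries 5 and 6.

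TIFY genes, which include the JAZ repressors of the jasmonate response, leaned toward leaf 6, with 10 of 21 higher and 3 lower, or 5 higher without leaf 6 control library 4. TIFY27 (100276383) held 118 to 179 CPM (median 135) in leaf 6, against 50.5 to 67.2 CPM (median 63.7) in leaf 5 (log2 1.21 ± 0.16, adjusted p = 2.81e-09). pnFL-2, also on this list, was lower in leaf 6, at a log2 change of -1.18 ± 0.14 (adjusted p = 1.22e-10). Neither gene overlapped between the leaves.

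Benzoxazinoid genes were mostly lower in leaf 6. The pathway starts with BX1, which releases indole from indole-3-glycerol phosphate, and runs through the cytochrome P450s BX2 to BX5. Its further enzymes are the dioxygenase BX6, the methyltransferase BX7 and the glucosyltransferases BX8 and BX9. The product is stored as a glucoside. Of 13 genes on the list, 9 were lower and 3 higher in leaf 6, against 22.7% and 22.2% of all genes, and the median log2 change was -1.61. The list summed to 2004 to 2798 CPM (median 2515) in leaf 6 and 3408 to 6275 CPM (median 4616) in leaf 5, with no overlap between the libraries, and to 6894 to 12010.2 CPM (median 8103) in leaf 4.

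At the entry, bx1 (542117) held 7.63 to 78.4 CPM (median 19.4) in leaf 6, against 72.8 to 306 CPM (median 112) in leaf 5. It was lower in leaf 6, at a log2 change of -2.46 ± 0.45 (adjusted p = 7.17e-06), or at -3.18 without leaf 6 control library 1, which alone reached into the leaf 5 range. bx2 (100192631) held 3.79 to 25.1 CPM (median 14.7) in leaf 6 and 51.3 to 204 CPM (median 104) in leaf 5 (log2 -3.09 ± 0.51, adjusted p = 1.11e-06). The 3 following P450 genes, BX3, BX4 and BX5, are alike in sequence. They were lower in leaf 6, at log2 changes of -0.98 ± 0.24, -1.61 ± 0.24 and -1.78 ± 0.24, each without overlap.

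At the steps after the P450s the leaves were also apart. bx6 (541977) held 32.3 to 107 CPM (median 65) in leaf 6, against 201 to 646 CPM (median 500.1) in leaf 5, and was lower in leaf 6, at a log2 change of -2.81 ± 0.20 (adjusted p = 8.70e-19). Bx7 (100147731) was lower in leaf 6, at a log2 change of -1.81 ± 0.18 (adjusted p = 2.43e-13). Of the glucosyltransferases, bx8 held 37.6 to 56 CPM (median 43.7) in leaf 6 and 84.1 to 165 CPM (median 157) in leaf 5 without overlap (log2 -1.66 ± 0.16), while bx9 held 166 to 244 CPM (median 193) in leaf 6 and 228 to 345 CPM (median 314) in leaf 5 with overlap (log2 -0.63 ± 0.11, adjusted p = 1.36e-06).

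3 members were higher in leaf 6. BX14 (100281319), an O-methyltransferase that modifies the stored glucosides, held 74.8 to 147 CPM (median 129.7) in leaf 6, against 2.29 to 15.8 CPM (median 9.64) in leaf 5, and was higher by 3.74 ± 0.47 (adjusted p = 1.17e-09), a fold change of 13.4. BX13, a dioxygenase of a later branch, held 4.56 to 20.2 CPM (median 14.3) in leaf 6 and 2.6 to 6.13 CPM (median 4.75) in leaf 5 (log2 1.52 ± 0.40, adjusted p = 0.00153). glu2, a beta-glucosidase gene, was higher by 0.57 ± 0.20 (adjusted p = 0.0153), and did not pass without leaf 5 control library 6 (0.48, adjusted p = 0.0537). All 9 lower genes had their highest median in leaf 4, and BX13, BX14 and glu2 their lowest.

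Volatile genes of indole and terpene origin were also lower in leaf 6. Of 14 on the list, 7 were lower and 0 higher, against 22.7% and 22.2% of all genes. In all 7 the libraries did not overlap, as in 9.7% of all genes in that direction. With DESeq2 size factors, with the DESeq2 Wald test and in some other settings 1 member was higher. Igl (100273163), the lyase that frees indole for release, held 1.04 to 17.5 CPM (median 14.1) in leaf 6, against 89.1 to 137 CPM (median 116) in leaf 5, and was lower in leaf 6, at a log2 change of -3.29 ± 0.28 (adjusted p = 1.30e-15; -2.85 without leaf 6 control libraries 5 and 6, where it was lowest). Leaf 4 held 99.2 to 138 CPM (median 126) of Igl, a range that takes in most of the leaf 5 libraries. The terpene synthase genes TPS2 (732758) and TPS3 (732759), which share sequence and may share reads, were lower in leaf 6, at log2 changes of -2.93 ± 0.29 and -3.19 ± 0.36. CYP92C5 (103631958), the P450 that forms the homoterpene DMNT, held 0.671 to 3.95 CPM (median 3.35) in leaf 6 and 12.9 to 31.2 CPM (median 25) in leaf 5 (log2 -3.21 ± 0.27, adjusted p = 1.15e-15). CYP92C6 stood at -0.90 ± 0.18, AAMT2, an anthranilic acid methyltransferase gene, at -1.47 ± 0.21 and fps, a farnesyl diphosphate synthase gene, at log2 -2.69. Outside this list dxs2, which starts the plastid isoprenoid pathway as dxs1 does, was lower at -2.10 ± 0.29, where dxs1 was higher.

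**Figure D4:**
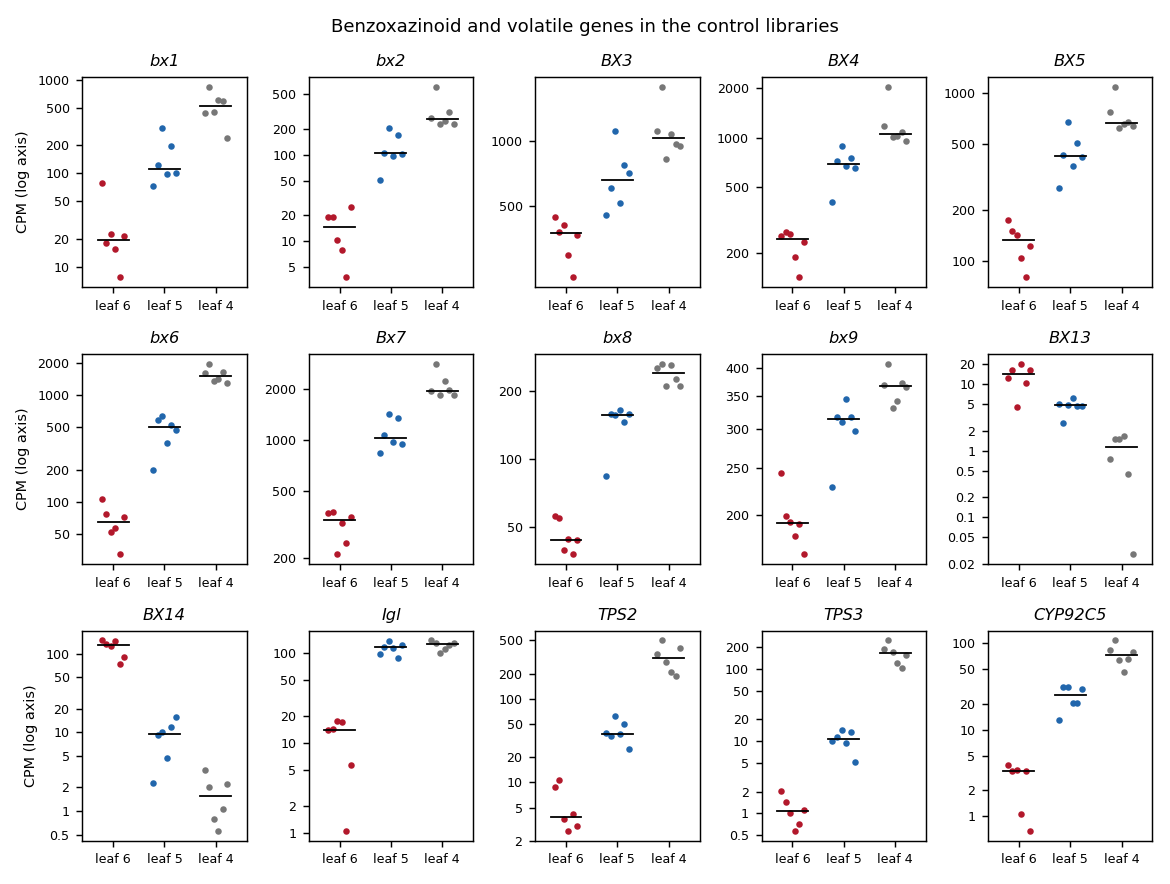
CPM (log axis) of 11 benzoxazinoid genes and 4 volatile genes in each control library of leaf 6 (red), leaf 5 (blue) and leaf 4 (grey), with the median of 6 as a bar. bx1 to bx9 and the volatile genes sit lowest in leaf 6, whereas BX13 and BX14 sit highest there; in bx1 a single leaf 6 library at 78.4 CPM reaches the leaf 5 range.

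Several of these leaf differences were smaller after treatment. After 2 h of HAC the leaf 6 minus leaf 5 difference of TPS2 was -0.45 ± 0.26 on the log2 scale, against -2.93 ± 0.29 in controls, a change of 2.48 ± 0.39 (adjusted p = 5.08e-05). That of dxs2 was 0.28 ± 0.27 after HAC, a change of 2.38 ± 0.39 (adjusted p = 0.000126). That of BX5 was -0.11 ± 0.24, a change of 1.67 ± 0.34 (adjusted p = 0.00224). TPS3, CYP92C5, Igl, BX4, bx6, Bx7 and bx8 also passed this test at 2 h of HAC, each with a smaller difference than in controls. bx1, bx2 and bx9 did not pass it in any treated set.

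Proteins that act against feeding insects and microbes went both ways. MPI (542408), the maize proteinase inhibitor, held 219 to 740.5 CPM (median 352) in leaf 6, against 36.8 to 54.9 CPM (median 43.5) in leaf 5, and was higher by 3.17 ± 0.36 (adjusted p = 5.19e-11). wip1 (542729), a wound-induced Bowman-Birk type inhibitor, held 103 to 203 CPM (median 151) in leaf 6 and 7.75 to 22.7 CPM (median 13.8) in leaf 5 (log2 3.32 ± 0.43, adjusted p = 2.22e-09). RIP (541814), a ribosome-inactivating protein also listed as rip2, held 125 to 209 CPM (median 158) in leaf 6 and 12.2 to 21.4 CPM (median 15.8) in leaf 5 (log2 3.34 ± 0.22, adjusted p = 3.61e-20). The leaf 6 libraries of all 3 genes stood far above those of leaf 5, and leaf 4 held 222 to 1151 CPM (median 341) of MPI, 1.38 to 7.89 CPM (median 4.53) of wip1 and 21.8 to 54 CPM (median 23.5) of RIP. chiA, a chitinase gene, was higher by 2.31 ± 0.44.

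PR-5 (542720), a thaumatin-like protein, was lower. It held 5 to 38.2 CPM (median 10.2) in leaf 6 and 26.6 to 126 CPM (median 48.6) in leaf 5 (log2 -2.12 ± 0.40, adjusted p = 1.41e-05; -2.74 without leaf 6 control library 5, the highest of its group). Of 13 defence proteins, 5 were higher and 2 lower in leaf 6, against 22.2% and 22.7% of all genes. After ZmPep3 and after 2 h of HAC the leaf difference of RIP was 2.01 ± 0.21 and 2.12 ± 0.21, a change from controls of -1.33 ± 0.29 and -1.23 ± 0.28 (adjusted p = 0.00311 and 0.00993).

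Chaperone genes that passed were nearly all lower in leaf 6. Of 27 heat shock protein and chaperone genes, 9 were lower and 1 higher, 17 did not pass, and the median log2 change was -0.52. HSP90-2 (100384478) held 132 to 151 CPM (median 142) in leaf 6, against 220.1 to 281 CPM (median 243) in leaf 5 (log2 -0.82 ± 0.09, adjusted p = 1.85e-11). bip2, the luminal chaperone of the endoplasmic reticulum, held 10.3 to 20.2 CPM (median 13.4) in leaf 6 and 30.4 to 43.6 CPM (median 42.2) in leaf 5 (log2 -1.47 ± 0.18). The single higher member was cdj2 (100191411), a plastid DnaJ-type co-chaperone, with 436 to 654 CPM (median 572) in leaf 6 and 243 to 307 CPM (median 273) in leaf 5 (log2 1.00 ± 0.11, adjusted p = 3.74e-12). In none of these genes did the leaves overlap. Of 22 WRKY factors, many of which act in defence and senescence, 10 were lower and 3 higher. The member listed as WRKY53 (100147737) held 13.1 to 52.2 CPM (median 29.6) in leaf 6, against 159 to 217 CPM (median 197) in leaf 5 (log2 -2.62 ± 0.26, adjusted p = 4.67e-13).

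Proteases of leaf ageing were lower in leaf 6. Of 7 genes, 5 were lower and 2 higher, the higher ones being the stay-green genes SGR1 (log2 1.66) and SGR2 (log2 0.44), which act in chlorophyll breakdown. The count of higher genes fell to 1 in some alternative settings, among them the fit of only the 12 control libraries. ccp2 (542451), a cysteine protease also listed as see1 for its rise in senescing leaves, held 281 to 609 CPM (median 527) in leaf 6, against 1273 to 1704 CPM (median 1591) in leaf 5, and was lower in leaf 6, at a log2 change of -1.64 ± 0.13 (adjusted p = 1.59e-17). see2b, a vacuolar processing protease, held 103 to 239 CPM (median 143) in leaf 6 and 282 to 376 CPM (median 308) in leaf 5 (log2 -1.04 ± 0.19). lls1, the oxygenase of chlorophyll breakdown behind the lethal leaf spot mutant, held 26.7 to 34.6 CPM (median 31) in leaf 6 and 67.4 to 83.1 CPM (median 74.5) in leaf 5 (log2 -1.28 ± 0.15, adjusted p = 9.92e-11). The leaves did not overlap in any of the 3 genes, and leaf 4 held 2400.4 to 2644 CPM (median 2557) of ccp2 and 204 to 308 CPM (median 269) of lls1.

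Starch synthesis genes went both ways. AGP2 (542737), from the enzyme that makes the precursor of starch, held 23.6 to 43.7 CPM (median 33.4) in leaf 6, against 72.3 to 153 CPM (median 127) in leaf 5, and was lower in leaf 6, at a log2 change of -1.85 ± 0.17 (adjusted p = 1.83e-14). ss1 and GBSSIIa, starch synthase genes, were lower in leaf 6, at log2 changes of -1.13 ± 0.10 and -1.83 ± 0.24. du1, the starch synthase gene of the dull endosperm mutant, was higher by 1.91 ± 0.32 at a low level, 4.11 to 8.96 CPM (median 6.63) in leaf 6 and 0.792 to 2.78 CPM (median 1.83) in leaf 5. Of 14 starch genes, 4 were higher and 5 lower, against 22.2% and 22.7% of all genes.

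The phloem-loading sucrose transporter gene sut1 (541615) held 482 to 597 CPM (median 502) in leaf 6, against 997 to 1206 CPM (median 1021) in leaf 5, and was lower in leaf 6, at a log2 change of -1.04 ± 0.09 (adjusted p = 2.81e-16). SPS, a sucrose phosphate synthase gene, held 215 to 329 CPM (median 273) in leaf 6 and 357 to 659 CPM (median 522) in leaf 5 (log2 -0.91 ± 0.21). SH-1, a sucrose synthase that breaks sucrose down in importing tissue, was the member that was higher, with 156 to 318 CPM (median 175) in leaf 6 and 90.9 to 172 CPM (median 103) in leaf 5 (log2 0.92 ± 0.20, adjusted p = 9.06e-05). The leaves overlapped for SH-1 and not for sut1 or SPS. Of 12 sucrose genes, 6 were lower and 1 higher.

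Nitrogen genes went both ways, with 3 of 16 genes of nitrogen and sulfur assimilation higher and 6 lower. Over all genes 22.2% were higher and 22.7% lower. NIR, the nitrite reductase of plastids, held 117 to 182 CPM (median 146) in leaf 6, against 62.2 to 101 CPM (median 73.7) in leaf 5 (log2 1.00 ± 0.17, adjusted p = 1.61e-06). The cytosolic glutamine synthetase genes gln1-3 (542214) and Gln1-4 (542401) were lower in leaf 6, at log2 changes of -0.95 ± 0.08 and -0.94 ± 0.11, and gln1-3 held 179.5 to 200.3 CPM (median 185) in leaf 6 and 326 to 397 CPM (median 372) in leaf 5. asn2, an asparagine synthetase gene, held 2.05 to 4.53 CPM (median 3.85) in leaf 6 and 7.85 to 83.8 CPM (median 11.1) in leaf 5. Its log2 difference of -2.78 ± 0.54 was -1.88 without leaf 5 control library 6, the highest of its group. No overlap between the leaves was found in these 4 genes.

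The transporter genes HKT1 and ys1 were lower in leaf 6. HKT1 (100382359), a sodium transporter gene, was at 0 in 5 of the 6 leaf 6 libraries and at 0.196 CPM in the other, against 3.92 to 8.99 CPM (median 7.21) in leaf 5 and 22.8 to 25.1 CPM (median 24.7) in leaf 4. The fitted log2 difference was -7.50 ± 0.52 (adjusted p = 8.09e-18). Without leaf 6 control library 1 all leaf 6 libraries were at 0, and the fitted value is then no measure of size. ys1 (541800), which takes up iron bound to phytosiderophores, held 9.38 to 81.6 CPM (median 42.4) in leaf 6 and 230.4 to 1022 CPM (median 614) in leaf 5 (log2 -3.87 ± 0.61, adjusted p = 3.73e-07). Leaf 4 held 13.7 to 50.6 CPM (median 28.2) of ys1, so it was high in leaf 5 alone of the 3 leaves.

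Alcohol dehydrogenase genes, known for their induction when oxygen is short, were lower in leaf 6. adh1 (542363) held 5.27 to 13.5 CPM (median 7.67) in leaf 6, against 27.7 to 76.4 CPM (median 35.1) in leaf 5 (log2 -2.30 ± 0.23), and adh2 (542364) held 18.2 to 31.8 CPM (median 25.3) in leaf 6 and 115 to 155 CPM (median 127) in leaf 5 (log2 -2.36 ± 0.17, adjusted p = 1.79e-18). The thiamine thiazole synthase genes thi1 (542714) and thi1-2 (542715), abundant and near-identical copies, were lower in leaf 6, at log2 changes of -0.79 ± 0.13 and -1.71 ± 0.16. thi1-2 held 1085 to 1866 CPM (median 1383) in leaf 6 and 2798 to 6358 CPM (median 4711) in leaf 5. None of these 4 genes overlapped between the leaves.

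Several regulators of low level in leaf 5 were higher in leaf 6. ZCN20 (100127529), of the phosphatidylethanolamine-binding family that includes florigen, held 3.4 to 8.92 CPM (median 5.64) in leaf 6, against 0 to 0.563 CPM (median 0.0628) in leaf 5, and was higher by 5.06 ± 0.61 (adjusted p = 2.65e-10; 5.90 without leaf 5 control library 2). HB53 (100285975), a homeobox gene, held 3.93 to 8.66 CPM (median 5.61) in leaf 6 and 0.0995 to 0.496 CPM (median 0.238) in leaf 5 (log2 4.35 ± 0.51). myb42 (100101513), a MYB factor known as a repressor of lignin genes, held 20.6 to 30.2 CPM (median 26.4) in leaf 6 and 0.64 to 7.91 CPM (median 2.25) in leaf 5 (log2 2.97 ± 0.37, adjusted p = 9.99e-10). id1 (541693), the indeterminate1 zinc finger factor known to act in young leaves to promote flowering, held 23.7 to 42.7 CPM (median 33) in leaf 6 and 7.2 to 12.2 CPM (median 8.33) in leaf 5 (log2 1.85 ± 0.23, adjusted p = 3.27e-10), and 1.23 to 3.22 CPM (median 1.88) in leaf 4. In these 4 genes every leaf 6 library lay above every leaf 5 library. The rule for the largest rises, which took in ZCN20 and HB53, required this.

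Of 4 light signalling genes 3 were higher and 1 was lower in leaf 6, against 22.2% and 22.7% of all genes. The phytochrome genes PHYB and PhyB2, which encode red light receptors, were higher by 0.81 ± 0.16 and 1.20 ± 0.21. Of the phytochrome-interacting factors, PIF4 was higher by log2 4.28 and PIF5 was lower (log2 -1.40). COL10, a CONSTANS-like gene, was higher by 1.52 ± 0.15. Its list of clock and CONSTANS-like genes had 3 of 8 higher and 2 lower, conz1 (log2 -0.44) and PRR59 (log2 -0.23), calls that were lost with DESeq2 size factors. scl23, a gene of the SCARECROW-like group, held 3.69 to 9.58 CPM (median 5.6) in leaf 6, against 10.7 to 25.2 CPM (median 19.5) in leaf 5 (log2 -1.61 ± 0.17, adjusted p = 6.31e-12). Leaf 4 held 45.3 to 63 CPM (median 53.9) of it. On the same list of Kranz and vascular patterning genes scl1 was higher (log2 3.93, no overlap), and in all 1 of 5 was higher and 3 were lower.

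Further large differences were seen in transport and redox genes. LPE1 (542332), named leaf permease 1, held 225 to 314 CPM (median 271) in leaf 6, against 19.1 to 58.9 CPM (median 36.1) in leaf 5 (log2 2.86 ± 0.28, adjusted p = 6.08e-13), and 0 to 0.514 CPM (median 0.069) in leaf 4. The peroxidase gene PER66 held 9.97 to 22.6 CPM (median 15.5) in leaf 6 and 0.416 to 1.85 CPM (median 1.55) in leaf 5 (log2 3.52 ± 0.37), and PER42 held 45.2 to 67.9 CPM (median 55.6) in leaf 6 and 186 to 390.0 CPM (median 241) in leaf 5 (log2 -2.21 ± 0.24). The glutathione transferase genes GST26 and gst24 were likewise opposed, GST26 higher by 4.35 ± 0.52 and gst24 lower at -2.22 ± 0.27. None of these 5 genes overlapped between leaf 6 and leaf 5, which the rule for the largest rises required of PER66 and GST26.

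Counts for the other lists read against 22.2% higher and 22.7% lower over all genes tested. Of NAC factors, 10 of 23 genes were higher and 5 lower, among the higher ones ANAC076 (log2 2.23) and NAC131 (log2 1.95). ANAC030, a gene of NAC name that is not on that list, was higher by 4.27 ± 0.56 (adjusted p = 6.57e-09). Of AP2/ERF factors 11 of 35 genes were higher and 9 lower, of bHLH factors 9 of 40 genes were higher and 8 lower, and of SBP factors 5 of 18 genes were higher and 6 lower. Of flowering and MADS genes 7 of 26 genes were higher and 3 lower. Of genes for leaf polarity and lateral organs, which set the upper and lower face of a leaf, 4 of 22 genes were higher and 6 lower. Of glutathione transferases 8 of 31 genes were higher and 9 lower, and of redox and peroxidase genes 6 of 16 genes were higher and 6 lower.

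Treatment changed the leaf difference of a minority of the genes described. Over the 144 genes and the 3 treated sets, 37 of 432 tests of a changed leaf difference passed, in 28 genes. Apart from the defence genes, asn2 and vp14 changed most after ZmPep3: the leaf difference of asn2 was 0.68 ± 0.50 there, a change from controls of 3.46 ± 0.73 (adjusted p = 0.00291). AGP2 had a smaller difference after 2 h of HAC (-0.77 ± 0.16) and after ZmPep3 (-0.91 ± 0.17) than in controls, with changes of 1.08 ± 0.23 and 0.94 ± 0.23 (adjusted p = 0.00467 and 0.0153). WRKY53 changed after 30 min of HAC, to a leaf difference of -0.95 ± 0.24 (change 1.66 ± 0.35, adjusted p = 0.00922).

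**Figure D5:**
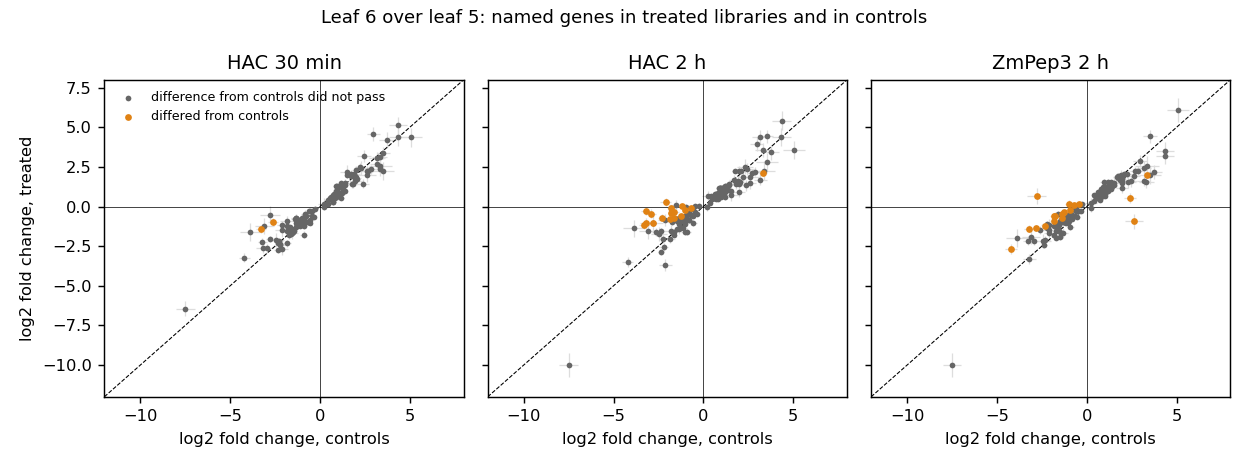
Log2 fold change of leaf 6 over leaf 5 in treated libraries (vertical axis) against that in control libraries (horizontal axis), with SE bars, for the 144 genes whose values are described; the dashed line marks equal differences. Most genes lie near the line; orange genes had a leaf difference that differed from the control one, 2 after 30 min of HAC, 17 after 2 h of HAC and 18 after ZmPep3.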

How the data were processed

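RNA of whole leaves was sequenced in 72 libraries, and per the submitters' processing notes reads were handled with Bowtie2, RSEM and B73 RefGen_v4; versions are not given in the sources used here. The authors deposited RSEM expected counts and FPKM values per gene: 11.09% of the counts above 0 were not whole (tolerance 1e-06), so the expected counts were rounded. FPKM, which the authors scaled per transcript length and depth, served only to set levels of different genes side by side. Of 43547 entries, 11312 were blank and were left out.

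Counts of all 12 groups entered one fit (edgeR 4.0.16 in R 4.3.3, robust quasi-likelihood test, TMM scaling, filterByExpr), with leaf 6 control minus leaf 5 control as the contrast and Benjamini-Hochberg adjustment over all 25558 genes tested, at a threshold of 0.05. The 72 libraries held 26212026 to 31052273 counts. Summed list levels and CPM are per library. Principal components were computed on log2 CPM with a prior count of 2. DESeq2 1.42.0 was an alternative test. Other alternatives changed the scaling, the filter, the libraries in the fit and a replicate block.

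Symbols and synonyms came from a RefSeq gene table of assembly Zm-B73-REFERENCE-NAM-5.0, not the one of the reads. It holds 30403 of the 32235 genes; 99.74% of the counts fall in these. Candidate genes for the text came from a rule. It took the 12 largest rises and 12 largest falls in log2 terms among named genes. These had no overlap and a mean of at least 5 CPM in the higher leaf. It also took the 8 largest rises and 8 largest falls in CPM. Up to 4 members of each gene list by adjusted p, and markers, were added. A part of the rule that needs gene descriptions matched nothing. Of the 144 genes described with full values, 113 were among the rule's candidates. The rule gave more candidates than these 113, and the selection from them was made with the results at hand. Among its 12 largest rises, TPS9 (log2 4.01), pcr1 (3.70), phytase2 (3.59) and GFT1 (3.43) are not described. Among its 12 largest falls, aldh5 (log2 -3.53) and bss1 (-3.35) are not described. Nor are aba1 (log2 -0.87), grp1 (-0.61) and Mt (-1.08), which with bss1 are among its 8 largest falls in CPM. The other 31 genes were pathway members, also picked with the results at hand. The same holds for list members given with a log2 change alone. The comparison, its lists and the rule were chosen with earlier results of these data known. The labels do not say whether same-numbered leaf 6 and leaf 5 libraries came from the same seedlings, and the main fit used no pairing. Over 6 numbers, the residual correlation of same-numbered leaf 6 and leaf 5 controls ran from -0.054 to 0.038. Such values cannot show whether libraries were paired.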

Additional observations from a re-analysis of the deposited data

Results flagged for a closer look

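Single libraries stood far from the other 5 of their group in 23 of 288 groups of 6 control libraries checked (leaf 6 and leaf 5 of each of 144 genes), judged by the gap to the nearest library against the range of the group (Dixon's 95% critical value for 6 samples). Chance alone marks about 1 group in 20. In leaf 6 controls the library that stood high was library 3 for G2-like1 (27.8 CPM, nearest 24.4 CPM), library 1 for expB8 (108 CPM, nearest 73.9 CPM), library 1 for Lsi1 (133 CPM, nearest 90.2 CPM). Likewise, a high value was found in library 4 for vp14 (52.7 CPM, nearest 12.8 CPM), library 1 for bx1 (78.4 CPM, nearest 22.3 CPM), library 5 for PR-5 (38.2 CPM, nearest 14.4 CPM). The same held for library 1 for HKT1 (0.196 CPM, nearest 0 CPM), library 5 for gst24 (10.4 CPM, nearest 4.71 CPM). In leaf 6 controls the library that stood low was library 1 for C4ppdkZm1 (5864 CPM, nearest 7283 CPM), library 3 for xth1 (551 CPM, nearest 625 CPM), library 4 for Laccase-17 (72 CPM, nearest 141 CPM). Likewise, a low value was found in library 4 for PhyB2 (17.1 CPM, nearest 24.4 CPM). Among leaf 5 controls the high library was library 3 for lg1 (0.832 CPM, nearest 0.22 CPM), library 1 for CAF1 (25.2 CPM, nearest 19.1 CPM), library 3 for vp14 (5.25 CPM, nearest 2.64 CPM). Likewise, a high value was found in library 3 for PP2C14 (5.85 CPM, nearest 1.65 CPM), library 3 for aos2 (75.7 CPM, nearest 54.5 CPM), library 3 for SH-1 (172 CPM, nearest 115 CPM). The same held for library 6 for asn2 (83.8 CPM, nearest 27.5 CPM), library 6 for see2b (376 CPM, nearest 315 CPM), library 3 for adh1 (76.4 CPM, nearest 40.9 CPM). Among leaf 5 controls the low library was library 1 for xet1 (27.6 CPM, nearest 33 CPM), library 1 for bx8 (84.1 CPM, nearest 145 CPM).

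The leaf 6 minus leaf 5 difference after treatment differed from that in controls, by the test of the difference itself, in 37 of 432 tests over 28 of the 144 genes. Values are changes of the log2 difference relative to controls, and a change opposite in sign to the control difference makes it smaller. After 30 min of HAC it changed for Igl (1.89) and the gene listed as WRKY53 (symbol WRKY) (1.66). The adjusted p-values were 0.00605 and 0.00922. After 2 h of HAC it changed for CesA-1 (0.61), TIP4-1 (0.65), Lsi1 (0.79), pnFL-2 (1.21) and BX4 (1.26). It changed at that treatment also for BX5 (1.67), bx6 (1.78), Bx7 (1.39), bx8 (0.93) and Igl (2.11). Further changes there were those of TPS2 (2.48), TPS3 (2.15), CYP92C5 (2.91), dxs2 (2.38) and RIP (-1.23). The others were AGP2 (1.08) and adh1 (1.60). The adjusted p-values of these 17 genes ran from 1.39e-07 to 0.0333. After 2 h of ZmPep3 it changed for CesA-1 (0.80), CesA-2 (0.63), TIP4-1 (0.93), CKX10 (1.53) and crr1 (-1.84). It changed at that treatment also for RR9 (0.64), ARF17 (1.12), vp14 (-3.55), SnRK2.7 (0.89) and BX3 (1.17). Further changes there were those of BX5 (1.21), bx6 (1.43), Bx7 (1.24), CYP92C5 (1.82) and RIP (-1.33). The others were AGP2 (0.94), Gln1-4 (0.75) and asn2 (3.46). The adjusted p-values of these 18 genes ran from 0.000452 to 0.0496. For dxs2 after HAC, and for vp14 and asn2 after ZmPep3, the fitted leaf difference had the sign opposite to that in controls, and that treated difference did not itself pass for any of them (adjusted p = 0.411 for dxs2, 0.0989 for vp14 and 0.279 for asn2 by edgeR).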

How the results depend on the processing

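The number of genes called between leaf 6 and leaf 5 controls (11498) stayed within 1.5 times under every alternative run. It was 11604 with DESeq2 size factors, 11547 with no filter on low counts, 10959 with a filter at a mean of 1 CPM, 11892 with the DESeq2 Wald test, 9457 with only the 12 control libraries in the fit and 10139 without leaf 6 control libraries 5 and 6. Leaving out each control library in turn gave 10824 to 11269. With the replicate number as a block (replicate block) it was 11486, and no gene described crossed the threshold. The share of calls that were higher in leaf 6 was 49.4% and ran from 44.0% to 55.9% over these settings; size factors moved the median log2 change of all genes by 0.059. No gene described changed direction. Of 144 genes, 140 stayed on the same side of the threshold in every setting; lox6, HPL and glu2 lost the call in one setting each and lox10 gained it in one, as given beside them. The cause was not tested. Of 2318 counts of calls per list and setting, 114 moved by over 1.5 times, most of them counts of 3 or fewer. Of the counts above 3 given in the text, these moved: AP2/ERF higher (7, only 12 libraries), TIFY higher (5, only 12 libraries or without leaf 6 control library 4), abscisic acid higher (6, only 12 libraries or without leaf 6 control library 1), auxin higher (16, DESeq2), cell number and ARGOS lower (3, only 12 libraries), and, without leaf 6 control libraries 5 and 6, leaf polarity higher (2) and lipoxygenase and jasmonate lower (5). Size factors gave 5 light harvesting and 5 WRKY genes higher, in place of 3 each. Depth, at 26212026 counts or more a library, limits mainly genes of a few CPM, such as PCNA, lg1 and kn1.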
